A study of Mus musculus with 8 samples.

Results

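The transcriptomes of 2 mouse embryonic stem (ES) cell lines, both built to make full-length and exon 6-skipped *Tbxt* transcripts but by different edits, were set against each other. Members are the 4 libraries, of 8 in the series, that the sample labels assign to insASAY/insASAY (2 libraries) and to delE6/+ (2 libraries), and all genes were compared between them. The insASAY/insASAY cells carry on both alleles a human AluSx1 element in intron 5 and a human AluY element in intron 6 of *Tbxt*, the inverted pair that flanks exon 6 in hominoids. The delE6/+ cells lack exon 6 on 1 allele and keep it on the other. Every library, including the 2 wild-type libraries used here as a common reference point, came from MK6, ES cells of C57BL/6J mice. Cells were collected on day 1 of differentiation. They had first been moved to a serum-free N2/B27 medium, and 1 day before collection the GSK3 inhibitor CHIR99021 was added. The deletion line was made without feeder cells and under blasticidin selection. The insertion line was made on mouse embryonic fibroblast feeders with a puro-ΔTK cassette that was later removed by Cre recombinase and ganciclovir counter-selection, and single clones were grown out. The study's methods call the 2 libraries of each genotype biological replicates. They name different clones for the pair of delE6/delE6 libraries, with the deletion on both alleles, and do not say whether the 2 libraries of either line compared here came from separate clones. The edit, the clone and the way each line was made therefore cannot be told apart in any difference below. The p-values measure the spread between libraries of the same genotype, pooled over all 4 genotypes. The delE6/delE6 pair differed the most, with a chi-square per degree of freedom of 11.4 between its libraries over genes, against 2.79 in insASAY/insASAY and 3.46 in delE6/+. Fitted on the 4 libraries alone, 4848 genes were called, against 4696 with all 8.

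*Tbxt* (brachyury) encodes a T-box transcription factor that is switched on in the primitive streak and later acts in the node, the notochord and the tail bud, where it keeps posterior mesoderm growing. Wnt signalling through β-catenin, which CHIR99021 mimics, induces it, and Nodal and FGF signals act beside Wnt in the streak. ES cells leaving naive pluripotency pass through a formative state before they take up a streak or a neural fate.

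Exon 6 is shown because it is the segment by which the 2 *Tbxt* transcripts of both lines differ. It lies on the plus strand of chromosome 17 at chr17:8438616-8438789 (GRCm38) and is a coding exon of 174 bases. That is the length of 58 codons with 0 bases over, so that skipping it does not shift the frame. In the sequences below, read from the GENCODE M21 transcript, capitals mark exon 6, and the 30 bases on either side, in lower case, are the end of exon 5 and the start of exon 7. The second sequence is the junction of the skipped transcript, the same flanks joined without the capitals.
Tbxt exons 5, 6 and 7: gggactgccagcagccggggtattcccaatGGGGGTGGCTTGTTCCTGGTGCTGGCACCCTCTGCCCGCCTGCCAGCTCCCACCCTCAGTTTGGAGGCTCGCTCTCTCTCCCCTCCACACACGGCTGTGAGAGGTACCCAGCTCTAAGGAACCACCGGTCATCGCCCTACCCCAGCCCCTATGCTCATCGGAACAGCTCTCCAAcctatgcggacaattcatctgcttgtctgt
Tbxt exons 5 and 7 joined: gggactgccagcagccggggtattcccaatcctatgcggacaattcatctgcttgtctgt

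Counts per gene do not separate these 2 transcripts, so what follows concerns *Tbxt* as a whole and the rest of the transcriptome. Reads counted on genes ran from 24618587 to 28445952 per library, and TMM scaling factors from 0.975 to 1.03. Values are CPM, read counts scaled to a common library size after TMM adjustment, given for replicate 1 and then replicate 2. A log2 fold change is insASAY/insASAY minus delE6/+ unless a line is named with wild-type, its error is the standard error of the edgeR fit, and each adjusted p is from edgeR (quasi-likelihood test, Benjamini-Hochberg over all tested genes, n = 2 libraries per line). The word called is kept for genes that passed 2 thresholds, an adjusted p below 0.05 and a log2 fold change above 0.5 or below -0.5. Both lines are also given against the wild-type libraries, which the 2 comparisons share.

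ES cell markers were expressed in all 4 libraries. Summed over 8 ES cell markers, expression was 1200 and 1150 CPM in insASAY/insASAY and 1200 and 1140 CPM in delE6/+, against 1430 and 1380 CPM in wild-type. The 7 primitive streak markers summed to 19.9 and 23.1 CPM in insASAY/insASAY and 11.8 and 14.2 CPM in delE6/+, against 19.1 and 21.1 CPM in wild-type. They did not move together, since of the 5 tested 2 were called higher and 1 lower in insASAY/insASAY and 2 were not called. *Msgn1* was at 0 reads in the 4 libraries of the lines. The 12 markers of fibroblast feeders, of which 7 passed the filter on low counts, summed to 22.3 and 22.1 CPM in insASAY/insASAY and 44.7 and 44.6 CPM in delE6/+, against 43.3 and 48.0 CPM in wild-type. This sum was lower in the line that had been made on feeders, and 4 of the 7 markers were called lower there and 0 higher, where 13.0% and 14.6% of all tested genes were. The 4 neural markers summed to 150 and 163 CPM in insASAY/insASAY and 114 and 113 CPM in delE6/+, against 119 and 121 CPM in wild-type, and the 5 endoderm markers to between 10.0 and 12.3 CPM in the 4 libraries. The 5 trophectoderm markers summed to 10.7 and 11.6 CPM in insASAY/insASAY and 14.5 and 14.5 CPM in delE6/+, against 14.7 and 16.6 CPM in wild-type. Of the 4 tested, 2 were called lower in insASAY/insASAY and 0 higher, and *Elf5* was at 0 in the 4 libraries.

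*Tbxt* (ENSMUSG00000062327.10; chromosome 17, 8434423 to 8442496, plus strand) was weakly expressed, with 79.5% of tested genes more abundant. It was counted 30 and 29 times in the insASAY/insASAY libraries, 39 and 54 times in the delE6/+ libraries and 47 and 42 times in wild-type. The delE6/+ libraries differed from each other more than either insASAY/insASAY library did from the lower of them. The fold change passed both thresholds (log2 fold change -0.76 ± 0.26, edgeR adjusted p = 0.0265). DESeq2's Wald test did not call it (log2 fold change -0.78, Benjamini-Hochberg adjusted p = 0.141), and the edgeR call was lost without insASAY/insASAY replicate 1 (-0.78), insASAY/insASAY replicate 2 (-0.74) or delE6/+ replicate 2 (-0.45). Of the other genes of the early streak that the study names, *Mixl1*, a homeobox factor of mesendoderm, was counted 16 and 29 times in insASAY/insASAY and 7 and 6 times in delE6/+ (log2 fold change 1.67 ± 0.54, edgeR adjusted p = 0.0192), a call that DESeq2's Wald test did not make (Benjamini-Hochberg adjusted p = 0.0757) and that was lost in edgeR without insASAY/insASAY replicate 2 (log2 fold change 1.17), delE6/+ replicate 1 (1.72) or delE6/+ replicate 2 (1.61). *Wnt3a*, at 9 and 3 against 2 and 2 reads, failed the filter on low counts, as did *Msgn1*. *Eomes*, the T-box partner of *Tbxt* in mesendoderm, had 14.4 and 17.3 CPM in insASAY/insASAY and 6.36 and 8.13 CPM in delE6/+ and was higher in both insASAY/insASAY libraries (log2 fold change 1.13 ± 0.13, edgeR adjusted p = 1.38e-05).

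Over the whole transcriptome, 27.5% of the 17049 tested genes were called between the lines, 14.6% higher and 13.0% lower in insASAY/insASAY. Outside chromosome 3 the share was 26.8%. The lines differed from each other in more genes than either differed from wild-type, where 21.3% of genes were called in insASAY/insASAY (11.5% higher and 9.85% lower) and 13.5% in delE6/+ (6.60% higher and 6.89% lower). The median log2 fold change over all tested genes was 0.003. Any group of genes below is to be read against these shares, since more than 1 gene in 4 differed.

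The largest rises outside chromosome 3, among genes averaging at least 5 CPM over the 4 libraries, were led by a receptor and an interferon-induced gene. *Ngfr*, the low-affinity neurotrophin receptor (chromosome 11, 95568818 to 95587735, minus strand), had 50.3 and 47.5 CPM in insASAY/insASAY and 5.53 and 5.07 CPM in delE6/+ (log2 fold change 3.20 ± 0.20, edgeR adjusted p = 1.34e-07). The wild-type libraries, at 16.5 and 20.9 CPM, lay between the lines. *Oasl2* and *Irgm2*, both interferon-induced, had log2 fold changes of 3.06 ± 0.24 and 2.25 ± 0.19. *Oasl2* was at 21.1 and 19.3 CPM in insASAY/insASAY and 2.84 and 1.96 CPM in delE6/+. *Mat2a*, the enzyme that makes S-adenosylmethionine, had 69.7 and 59.6 CPM in insASAY/insASAY and 10.5 and 13.1 CPM in delE6/+ (log2 fold change 2.46 ± 0.28, edgeR adjusted p = 1.17e-05), and here the delE6/+ libraries were near wild-type (15.3 and 14.5 CPM), so that the insASAY/insASAY line stood apart. *Srxn1*, which repairs oxidized peroxiredoxins, had 154 and 154 CPM in insASAY/insASAY and 33.6 and 33.3 CPM in delE6/+ (log2 fold change 2.20 ± 0.16, edgeR adjusted p = 3.08e-07), and the reductases *Ptgr1* and *Cbr3* had log2 fold changes of 2.12 ± 0.11 and 2.32 ± 0.15. In contrast, for *Sfn*, an epithelial 14-3-3 protein, *Plaur*, the urokinase receptor, and *Lefty2*, the insASAY/insASAY libraries were near wild-type and the delE6/+ libraries were low. *Sfn* had 39.7 and 46.0 CPM in insASAY/insASAY and 8.44 and 9.11 CPM in delE6/+, with 40.1 and 42.9 CPM in wild-type. *Plaur* had 50.8 and 61.4 CPM in insASAY/insASAY and 12.9 and 14.5 CPM in delE6/+, with 65.5 and 70.1 CPM in wild-type.

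The largest falls were led by an adhesion protein and a growth factor carrier. *Sdk2*, an adhesion protein of synapses, had 3.02 and 3.26 CPM in insASAY/insASAY and 37.0 and 33.6 CPM in delE6/+ (log2 fold change -3.49 ± 0.16, edgeR adjusted p = 1.64e-08). *Fgfbp3*, a secreted carrier of fibroblast growth factors, had 22.0 and 20.6 CPM in insASAY/insASAY and 170.4 and 172 CPM in delE6/+ (log2 fold change -3.00 ± 0.069, edgeR adjusted p = 3.78e-11), and the wild-type libraries, at 25.8 and 22.6 CPM, were near insASAY/insASAY, which differed from them by a log2 fold change of -0.18. *Meis2*, a homeobox cofactor, *Ncam1*, the neural cell adhesion molecule, and *Crabp1*, a retinoic acid binding protein, had log2 fold changes against wild-type of 1.62, 1.80 and 1.78 in delE6/+ and of -0.64, -0.43 and -0.44 in insASAY/insASAY. For these genes wild-type lay between the lines, nearer to insASAY/insASAY. *Ddit3*, the stress transcription factor CHOP, differed the other way about. It had 33.7 and 37.9 CPM in insASAY/insASAY and 172 and 177 CPM in delE6/+, with 159.8 and 154 CPM in wild-type, so that the insASAY/insASAY libraries alone were low (log2 fold change -2.28 ± 0.19, edgeR adjusted p = 9.86e-07). *Smc1b*, a cohesin subunit of meiosis, was low in the same line, at 6.23 and 7.03 CPM against 33.8 and 31.8 CPM (log2 fold change -2.31 ± 0.23, edgeR adjusted p = 4.34e-06).

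**Figure D1:**
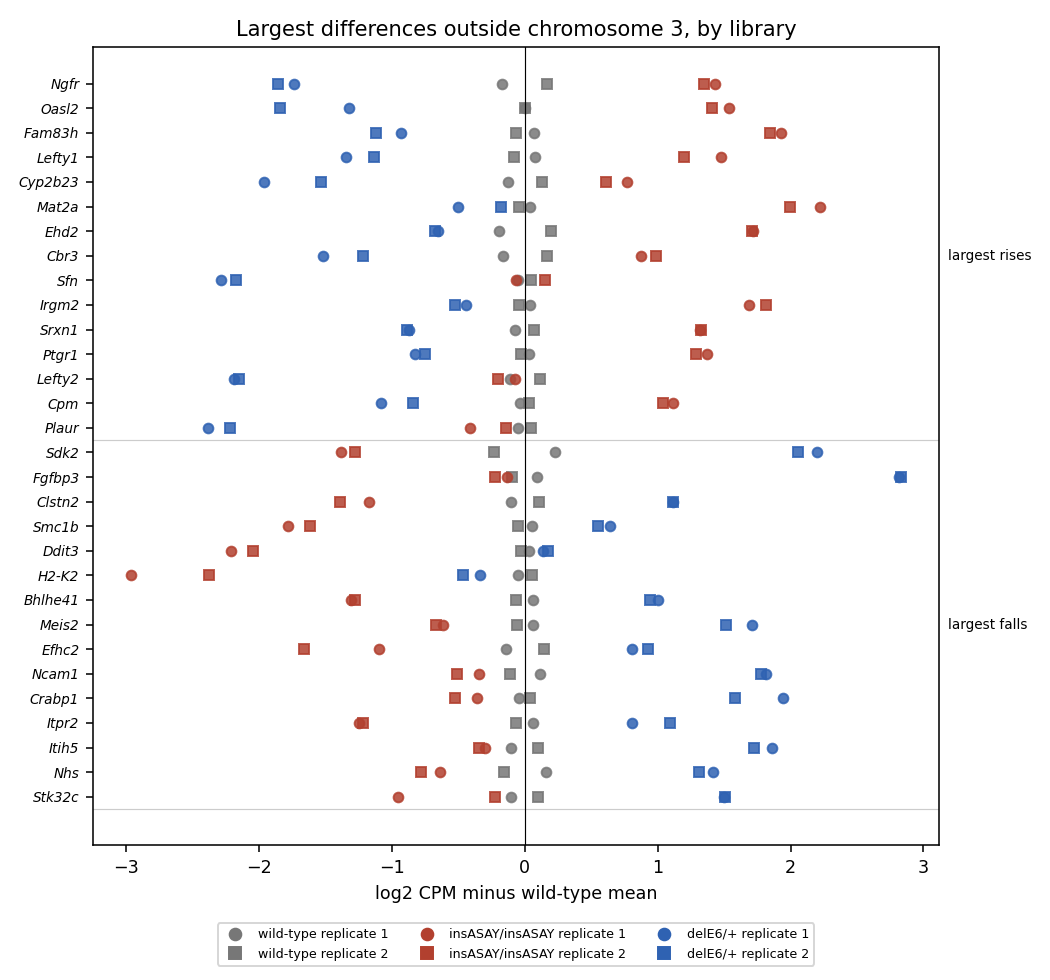
The 15 largest rises and 15 largest falls in insASAY/insASAY against delE6/+ outside chromosome 3, among genes averaging at least 5 CPM. The horizontal axis is log2 CPM (prior count 2) minus the mean of the 2 wild-type libraries, with 1 point per library. For *Fgfbp3* and *Sfn* the insASAY/insASAY points lie at wild-type and the delE6/+ points apart, and for *Ddit3* and *Mat2a* the reverse.

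Over the other autosomes and X, the share called ran from 22.4% to 32.0% and the median log2 fold change from -0.083 to 0.085. On chromosome 3, 41.0% of the 848 tested genes were called, 82 higher and 266 lower in insASAY/insASAY, with a median of -0.29. The 20 tested genes of the mitochondrial genome had 8 higher, 1 lower and a median of 0.456 (45.0% called), and of 10 tested genes of chromosome Y 1 was called.

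**Figure D2:**
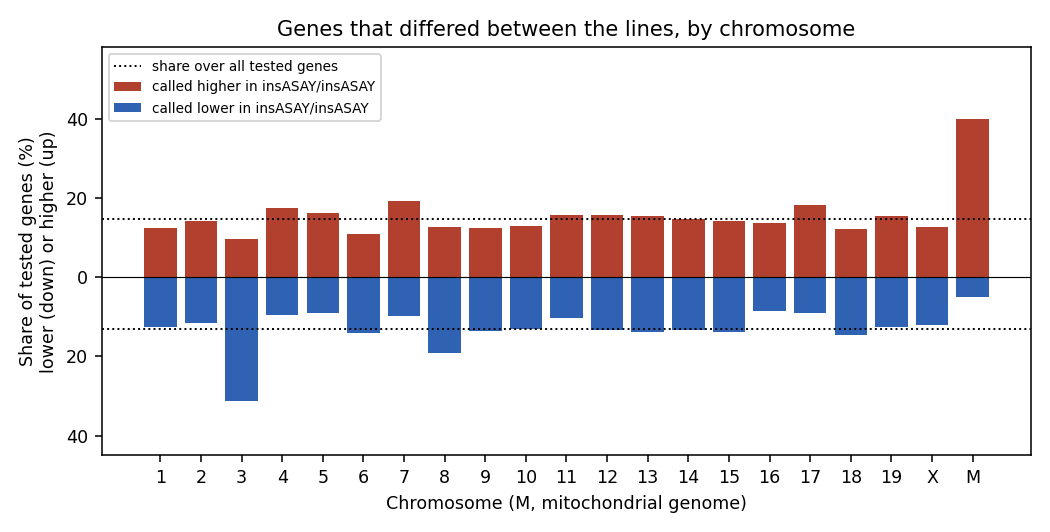
Share of tested genes (%) called higher (up, red) or lower (down, blue) in insASAY/insASAY than in delE6/+, for each chromosome. Dotted lines mark the shares over all tested genes, 14.6% and 13.0%. Chromosome 3 has an excess of lower genes, and the mitochondrial genome, with 20 tested genes, of higher ones.

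Chromosome 3 fell into 3 stretches, whose limits were chosen after the values were seen. From its start to 50 Mb, 139 genes had a median log2 fold change of -0.059, with 13 higher and 14 lower. From 50 to 140 Mb, 631 genes had a median of -0.421, with 28 higher and 249 lower (43.9% called). From 140 Mb to the end, 78 genes had a median of 0.654, with 41 higher and 3 lower (56.4% called). The direction had turned before the 140 Mb limit, since 9 consecutive genes averaging at least 5 CPM between 137621612 and 138559696, counted in the middle stretch, had log2 fold changes of -0.59 to -0.39 in delE6/+ against wild-type, and 4 of them were called higher in insASAY/insASAY. Set against wild-type, these medians lay in the delE6/+ line. In the middle stretch the 2 delE6/+ libraries stood at 0.444 and 0.435 above the wild-type mean and the 2 insASAY/insASAY libraries at -0.021 and -0.003. In the distal stretch the delE6/+ libraries stood at -0.659 and -0.623 and the insASAY/insASAY libraries at -0.062 and 0.025. Of the genes of the middle stretch, 232 were called higher and 17 lower in delE6/+ than in wild-type, against 65 and 62 in insASAY/insASAY. In the distal stretch 0 were called higher and 45 lower in delE6/+ (edgeR quasi-likelihood test), against 8 and 7 in insASAY/insASAY. The copy number of the chromosome was not measured, and its part in these shifts was not tested.

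**Figure D3:**
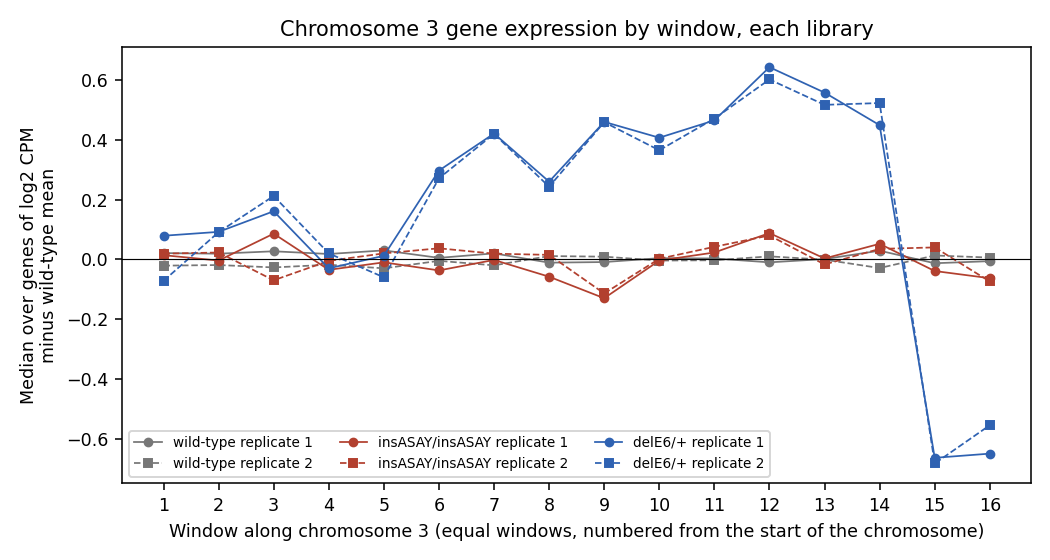
Median over the tested genes of log2 CPM minus the wild-type mean, in 16 consecutive windows of 10 Mb along chromosome 3, 1 line per library. The delE6/+ libraries (blue) run above 0.2 from window 6 to window 14 and below -0.5 in windows 15 and 16, while the insASAY/insASAY libraries (red) remain within 0.13 of the wild-type mean.

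Single genes of chromosome 3 went well past these medians. *Frem2*, a basement membrane protein (chromosome 3, 53513938 to 53657355, minus strand), had 134 and 128 CPM in insASAY/insASAY and 624 and 666 CPM in delE6/+ (log2 fold change -2.30 ± 0.056, edgeR adjusted p = 4.16e-11), with 186 and 185 CPM in wild-type. *S100a13*, a calcium-binding protein, had 2.7 and 3.37 CPM in insASAY/insASAY and 15.6 and 16.2 CPM in delE6/+ (log2 fold change -2.39 ± 0.23, edgeR adjusted p = 3.13e-06). *Txnip*, a thioredoxin inhibitor that responds to glucose, had 203 and 213 CPM in insASAY/insASAY and 774 and 724 CPM in delE6/+ (log2 fold change -1.85 ± 0.15, edgeR adjusted p = 7.99e-07). The other largest falls were of *Sohlh2*, a germ cell factor, at -1.89 ± 0.19, and of the kinase *Dclk1*, at -1.77 ± 0.17. In the distal stretch *Gbp2*, an interferon-induced guanylate-binding protein (chromosome 3, 142620602 to 142638008, plus strand), had 15.1 and 15.8 CPM in insASAY/insASAY and 2.54 and 2.21 CPM in delE6/+ (log2 fold change 2.7 ± 0.32, edgeR adjusted p = 1.63e-05). *Gtf2b*, the general transcription factor TFIIB, and *Ankrd13c* had log2 fold changes of 1.52 ± 0.11 and 1.41 ± 0.072. *Sox2*, a core pluripotency factor encoded in the proximal stretch, had 66.0 and 66.2 CPM in insASAY/insASAY and 117 and 109 CPM in delE6/+ (log2 fold change -0.77 ± 0.10, edgeR adjusted p = 5.02e-05), with 71.2 and 66.2 CPM in wild-type.

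Counts were made over 60 classes of genes, covering signalling pathways, lineages, metabolism and gene families. A larger list, the *Tbxt* targets named by the study (430 tested), is not among the 60. The study had drawn it from genes that differed between its mutant lines and wild-type. In 51 of them the share of tested members called was above the 27.5% of all genes, and in 15 it was above 50%. In 34 the median log2 fold change was below 0. The lists were written knowing earlier results of these data, so a count describes a class and tests nothing about it.

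**Figure D4:**
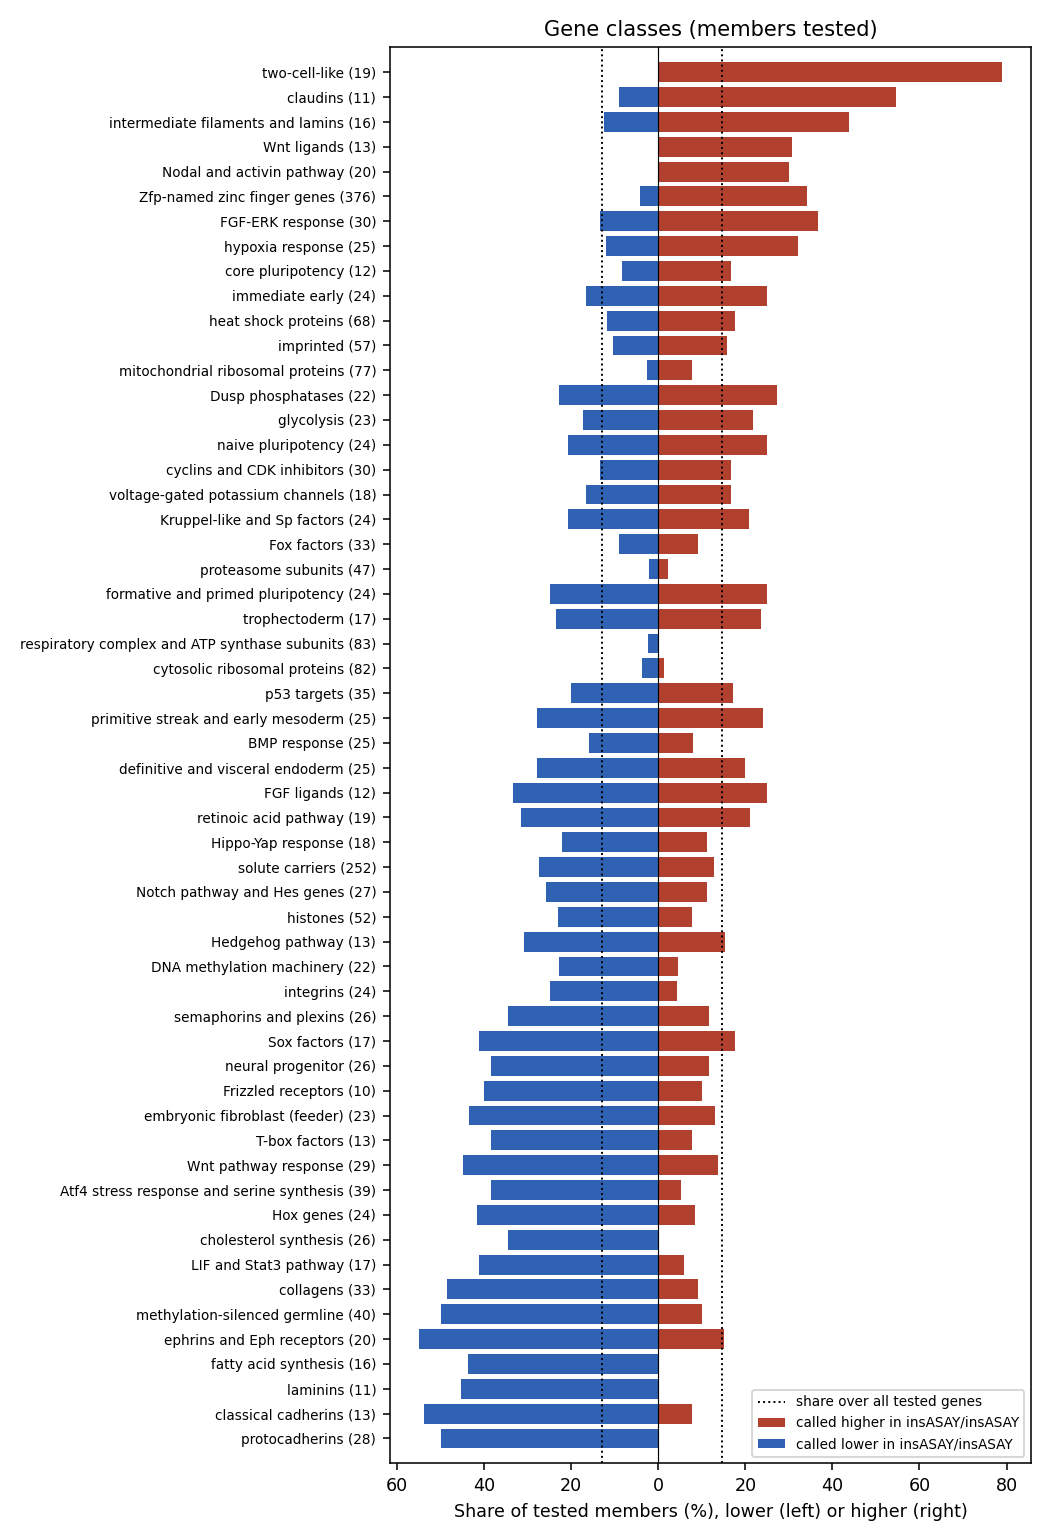
Share of tested members (%) called higher (right, red) or lower (left, blue) in insASAY/insASAY than in delE6/+, for the classes with at least 10 tested members, whose number is in parentheses. Dotted lines mark the shares over all tested genes. Two-cell-like genes stand at the top with 15 of 19 higher and 0 lower, protocadherins at the bottom with 0 of 28 higher and 14 lower.

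Genes of the Nodal pathway, the signal that patterns the streak and holds primed pluripotent cells, were higher in insASAY/insASAY wherever they were called. Of 20 tested members 6 were higher and 0 lower, a share called near the 27.5% of all tested genes. Against wild-type 0 members were called higher and 7 lower in delE6/+ (edgeR quasi-likelihood test), and 2 higher and 1 lower in insASAY/insASAY. Among ligands, *Nodal* itself had 24.6 and 24.7 CPM in insASAY/insASAY and 11.4 and 10.8 CPM in delE6/+ (log2 fold change 1.15 ± 0.098, edgeR adjusted p = 1.22e-06), while *Gdf3*, a related ligand, had 37.9 and 36.6 CPM in insASAY/insASAY and 39.0 and 40.0 CPM in delE6/+ (log2 fold change -0.08 ± 0.11, edgeR adjusted p = 0.562). *Tdgf1*, the Nodal co-receptor Cripto, had 37.6 and 35.5 CPM in insASAY/insASAY and 9.01 and 10.5 CPM in delE6/+ (log2 fold change 1.91 ± 0.096, edgeR adjusted p = 2.36e-08). The feedback inhibitors *Lefty1* and *Lefty2*, both Nodal targets, were higher as well. *Lefty1* had 54.8 and 45.3 CPM in insASAY/insASAY and 7.69 and 8.91 CPM in delE6/+ (log2 fold change 2.59 ± 0.18, edgeR adjusted p = 2.35e-07). *Lefty2* had 13.7 and 12.5 CPM in insASAY/insASAY and 3.10 and 3.19 CPM in delE6/+ (log2 fold change 2.06 ± 0.17, edgeR adjusted p = 8.93e-07). *Fst*, the activin antagonist follistatin, had 17.8 and 15.7 CPM in insASAY/insASAY and 5.83 and 6.21 CPM in delE6/+ (log2 fold change 1.47 ± 0.13, edgeR adjusted p = 1.91e-06). For *Tdgf1* and *Lefty2* the wild-type libraries (45.7 and 47.4 CPM and 13.3 and 15.6 CPM) were near insASAY/insASAY, and for *Fst* (4.73 and 5.06 CPM) near delE6/+. Receptors and Smad mediators did not pass the thresholds. *Smad2* had a log2 fold change of 0.38 ± 0.063, *Smad3* of -0.22 ± 0.067, *Acvr1b* of -0.16 ± 0.082 and the cofactor *Foxh1* of -0.31 ± 0.066.

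The FGF-ERK response, which drives exit from naive pluripotency, had 11 of 30 members higher and 4 lower. The ETS factor *Etv5* (66.2 and 61.5 CPM in insASAY/insASAY and 40.9 and 42.0 CPM in delE6/+; log2 fold change 0.62 ± 0.073, edgeR adjusted p = 1.46e-05) and the inhibitors *Spred2* and *Dusp5*, with log2 fold changes of 0.63 ± 0.074 and 0.76 ± 0.077, were higher. The phosphatase *Dusp4*, also a feedback inhibitor of ERK, was lower, at 11.9 and 11.9 CPM in insASAY/insASAY and 41.6 and 39.2 CPM in delE6/+ (log2 fold change -1.76 ± 0.11, edgeR adjusted p = 1.33e-07). Ligands went both ways. *Fgf5*, a ligand that marks formative cells, was counted 19 and 22 times in insASAY/insASAY and 0 and 3 times in delE6/+ (edgeR adjusted p = 0.00258). *Fgf8*, expressed in the streak, was counted 35 and 25 times against 65 and 69 times (log2 fold change -1.26 ± 0.25). Both rest on few reads.

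Of 13 tested Wnt ligands 4 were higher and 0 lower, among them *Wnt5b* (10.7 and 8.49 CPM in insASAY/insASAY and 3.94 and 4.50 CPM in delE6/+; log2 fold change 1.19 ± 0.23, edgeR adjusted p = 0.000781). The count of ligands called fell to 1 with DESeq2, with TREAT (a test against the fold threshold itself) and without insASAY/insASAY replicate 2 or delE6/+ replicate 2, and to 2 without either of the other libraries. *Wnt6*, which did not pass, had 14.9 and 15.1 CPM in insASAY/insASAY and 14.0 and 14.0 CPM in delE6/+ (log2 fold change 0.10 ± 0.12, edgeR adjusted p = 0.509), with 7.62 and 7.85 CPM in wild-type. Of 29 response genes, 13 were lower and 4 higher, with a median of -0.40. Those that were lower included the receptors *Tnfrsf19* (95.2 and 89.0 CPM in insASAY/insASAY and 157 and 169 CPM in delE6/+; log2 fold change -0.82 ± 0.062, edgeR adjusted p = 4.81e-07) and *Fzd7* (log2 fold change -0.57 ± 0.051), the inhibitor *Nkd1* (13.4 and 13.8 CPM in insASAY/insASAY and 30.2 and 25.5 CPM in delE6/+; log2 fold change -1.04 ± 0.095, edgeR adjusted p = 2.07e-06), and *Lef1*, a nuclear mediator encoded on chromosome 3 (18.4 and 16.3 CPM in insASAY/insASAY and 32.2 and 30 CPM in delE6/+; log2 fold change -0.84 ± 0.10, edgeR adjusted p = 2.01e-05). *Axin2*, a feedback inhibitor used as a general Wnt reporter, did not pass, at 51.5 and 45.7 CPM in insASAY/insASAY and 47.6 and 45.3 CPM in delE6/+ (log2 fold change 0.07 ± 0.11, edgeR adjusted p = 0.644), and was above wild-type (31.3 and 32.6 CPM) in both lines. *Sp5*, a direct β-catenin target, was higher, at 46.2 and 47.6 CPM in insASAY/insASAY and 19.6 and 19.4 CPM in delE6/+ (log2 fold change 1.27 ± 0.23, edgeR adjusted p = 0.000505), with 10.0 and 9.71 CPM in wild-type. Against wild-type, *Tnfrsf19*, *Nkd1* and *Lef1* had log2 fold changes of 1.35, 1.21 and 1.23 in delE6/+ and of 0.52, 0.17 and 0.38 in insASAY/insASAY, while *Sp5* had 0.98 and 2.25.

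Of 19 Wnt response genes with a RefSeq promoter (250 bases before to 50 after the start site, GRCm38.p6), 2 hold CTTTGAT, the core letters of a TCF/LEF site, on either strand, as do 4.29% of 27025 genes with a promoter. They are *Sp5* and *Tnfrsf19*, which differed in opposite directions. The *Sp5* match starts 104 bases before the start site, and 120 bases around it (chr2:70474764-70474883, plus strand) are shown with the match in capitals.
Sp5 promoter: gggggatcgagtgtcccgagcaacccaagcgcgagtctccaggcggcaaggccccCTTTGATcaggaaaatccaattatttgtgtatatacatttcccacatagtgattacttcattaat

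Streak and posterior genes were divided. Of 25 tested streak and early mesoderm genes, 6 were higher and 7 lower, 13 in all, or 8 without insASAY/insASAY replicate 2. *Eomes*, *Mixl1* and *Lefty2* were higher, as given above, and the Notch ligand *Dll1*, which acts in presomitic mesoderm, was lower, at 30.7 and 29.8 CPM in insASAY/insASAY and 52.9 and 59.1 CPM in delE6/+ (log2 fold change -0.89 ± 0.098, edgeR adjusted p = 8.86e-06). The caudal factors differed from each other. *Cdx1* had 14.7 and 15.2 CPM in insASAY/insASAY and 9.58 and 9.15 CPM in delE6/+ (log2 fold change 0.67 ± 0.12, edgeR adjusted p = 0.000303), and *Cdx2* was counted 25 and 17 times in insASAY/insASAY and 54 and 41 times in delE6/+ (log2 fold change -1.28 ± 0.34), a call lost with DESeq2 (adjusted p = 0.0627), without insASAY/insASAY replicate 2 (-1.03) and without delE6/+ replicate 1 (-1.12). Among 13 T-box genes, 1 (*Eomes*) was higher and 5 were lower, with *Tbx3*, a factor of naive pluripotency and mesoderm, at 16.3 and 14.7 CPM in insASAY/insASAY and 44.4 and 43.7 CPM in delE6/+ (log2 fold change -1.51 ± 0.26, edgeR adjusted p = 0.000317) and 63.2 and 57.4 CPM in wild-type. Of 24 tested Hox genes 10 were lower and 2 higher, with a median of -0.43. The 12 calls fell to 5 with DESeq2 and to 1 with TREAT, and to 5 without insASAY/insASAY replicate 1, 7 without insASAY/insASAY replicate 2, 3 without delE6/+ replicate 1 and 7 without delE6/+ replicate 2. *Hoxb2*, at 2.99 and 3.66 CPM in insASAY/insASAY and 8.40 and 6.09 CPM in delE6/+ (log2 fold change -1.13 ± 0.19, edgeR adjusted p = 0.000268), is of the anterior part of the clusters, and *Hoxb9* (log2 fold change -0.66 ± 0.14) and *Hoxc13* (-0.77 ± 0.18) are of the posterior part.

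Among genes of neural progenitors more were lower than higher in insASAY/insASAY. Of 26 tested neural progenitor genes 10 were lower and 3 higher, with a median of -0.39. *Sox1*, the first specific marker of neuroectoderm, had 7.91 and 5.85 CPM in insASAY/insASAY and 24.5 and 23.6 CPM in delE6/+ (log2 fold change -1.80 ± 0.14, edgeR adjusted p = 4.81e-07), with 6.32 and 5.36 CPM in wild-type. *Irx3*, a homeobox factor of the neural plate, had 5.03 and 4.17 CPM in insASAY/insASAY and 15.8 and 14.5 CPM in delE6/+ (log2 fold change -1.72 ± 0.14, edgeR adjusted p = 9.34e-07). *Sox11* and *Sox21*, factors of neural progenitors, had log2 fold changes of -1.10 ± 0.061 and -1.05 ± 0.14. Against wild-type, 10 of the class were higher and 1 lower in delE6/+, and 3 were higher and 3 lower in insASAY/insASAY. The 3 higher members were *Tubb3*, *Nes* and *Neurog3*. *Tubb3*, the tubulin of postmitotic neurons, had 31.0 and 34.1 CPM in insASAY/insASAY and 14.3 and 16.0 CPM in delE6/+ (log2 fold change 1.11 ± 0.085, edgeR adjusted p = 5.66e-07). *Nes*, which encodes the intermediate filament nestin, had 104 and 117 CPM in insASAY/insASAY and 68.2 and 68.2 CPM in delE6/+ (log2 fold change 0.70 ± 0.11, edgeR adjusted p = 0.00017), and *Neurog3*, a basic helix-loop-helix factor best known in the endocrine pancreas, had 9.44 and 8.97 CPM in insASAY/insASAY and 0.757 and 0.736 CPM in delE6/+ (log2 fold change 3.61 ± 0.36, edgeR adjusted p = 3.74e-06) and 1.08 and 0.707 CPM in wild-type. The marker sum given above, which *Nes* and *Tubb3* enter, was higher in insASAY/insASAY while *Sox1* and *Pax6* were lower.

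Several families of cell contact and guidance had more members lower than higher in insASAY/insASAY. Of 20 tested ephrins and Eph receptors 11 were lower and 3 higher, with a median of -0.69, or 9 of 17 lower outside chromosome 3. The ligand *Efnb1* had 18.4 and 18.5 CPM in insASAY/insASAY and 53.4 and 53.8 CPM in delE6/+ (log2 fold change -1.54 ± 0.073, edgeR adjusted p = 1.64e-08). Its relative *Efnb2* had 14.4 and 15.2 CPM in insASAY/insASAY and 31.4 and 27.8 CPM in delE6/+ (log2 fold change -1.0 ± 0.091, edgeR adjusted p = 1.95e-06), and the receptor *Epha7* 17.1 and 16.5 CPM in insASAY/insASAY and 37.7 and 39.2 CPM in delE6/+ (log2 fold change -1.20 ± 0.11, edgeR adjusted p = 2.79e-06). *Epha2*, a receptor of epithelia, was higher, at 68.2 and 70.4 CPM in insASAY/insASAY and 39.1 and 43.5 CPM in delE6/+ (log2 fold change 0.75 ± 0.071, edgeR adjusted p = 2.86e-06), with 109 and 114 CPM in wild-type. Of 13 classical cadherins 7 were lower and 1 higher, the lower ones including N-cadherin *Cdh2* (22.9 and 21.3 CPM in insASAY/insASAY and 41.1 and 41.6 CPM in delE6/+; log2 fold change -0.91 ± 0.085, edgeR adjusted p = 2.48e-06). With at least 10 counts required in every library, 5 classical cadherins were called. E-cadherin *Cdh1*, the adhesion protein of ES cells, had 469.8 and 495 CPM in insASAY/insASAY and 469 and 529 CPM in delE6/+ (log2 fold change -0.05 ± 0.058, edgeR adjusted p = 0.506) and did not pass. Of 28 tested protocadherins 14 were lower and 0 higher, and against wild-type 16 were higher in delE6/+. The 14 calls between the lines fell to 7 with DESeq2 and without delE6/+ replicate 2, and to 9 without any one of the other 3 libraries. Most belong to the clustered arrays, whose members share exons. The counting keeps reads that map to a single place and a single gene, so reads in shared exons are lost. *Pcdh1*, which stands outside the arrays, had 23.9 and 24.4 CPM in insASAY/insASAY and 45.6 and 45.5 CPM in delE6/+ (log2 fold change -0.91 ± 0.067, edgeR adjusted p = 3.85e-07). Of 26 semaphorins and plexins 9 were lower and 3 higher, with *Plxna2* at 6.49 and 6.81 CPM in insASAY/insASAY and 20.7 and 20.9 CPM in delE6/+ (log2 fold change -1.65 ± 0.11, edgeR adjusted p = 2.17e-07).

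Retinoic acid genes had no common direction, with 4 of 19 higher and 6 lower, 10 in all, or 6 without delE6/+ replicate 1. *Stra6*, the cellular receptor for vitamin A uptake, had 10.5 and 9.59 CPM in insASAY/insASAY and 35.9 and 39.3 CPM in delE6/+ (log2 fold change -1.90 ± 0.095, edgeR adjusted p = 2.26e-08), and the binding protein *Crabp1* 10.9 and 9.70 CPM in insASAY/insASAY and 54.2 and 42.1 CPM in delE6/+ (log2 fold change -2.22 ± 0.13, edgeR adjusted p = 8.64e-08). *Crabp2*, on chromosome 3, had 10.8 and 9.59 CPM in insASAY/insASAY and 26.7 and 21.7 CPM in delE6/+ (log2 fold change -1.25 ± 0.13) and was above wild-type (5.59 and 4.65 CPM) in both lines. *Stra8*, a retinoic acid target of germ cells, was higher, by 0.55 ± 0.057, and fell short of the fold threshold without delE6/+ replicate 1 (0.47).

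**Figure D5:**
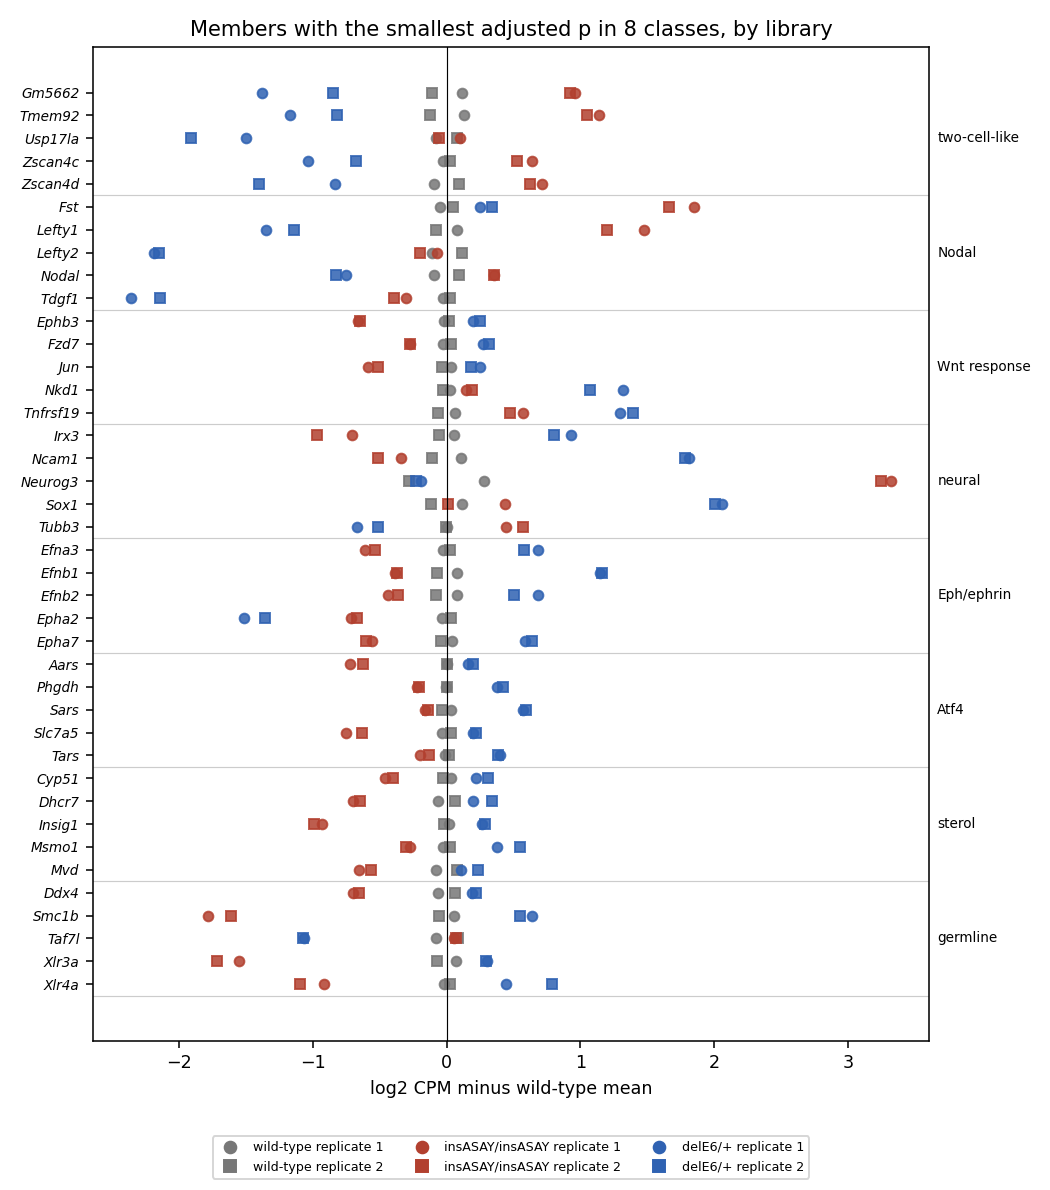
Up to 5 called members with the smallest adjusted p in 8 classes. The horizontal axis is log2 CPM (prior count 2) minus the mean of the 2 wild-type libraries, with 1 point per library. Two-cell-like and Nodal pathway members lie to the right in insASAY/insASAY relative to delE6/+, and sterol and Atf4 members to the left, with the delE6/+ points above wild-type and the insASAY/insASAY points below it.

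Pluripotency genes showed no shared direction. Of 24 naive genes 6 were higher and 5 lower, and of 24 formative and primed genes 6 were higher and 6 lower, or 6 and 4 of 22 outside chromosome 3. *Nanog* (22.2 and 21.0 CPM in insASAY/insASAY and 21.7 and 19.5 CPM in delE6/+; log2 fold change 0.07 ± 0.15, edgeR adjusted p = 0.737), *Klf4* (9.18 and 10.4 CPM in insASAY/insASAY and 9.73 and 8.17 CPM in delE6/+; log2 fold change 0.13 ± 0.12, edgeR adjusted p = 0.401) and *Pou5f1*, which encodes Oct4 (233 and 228 CPM in insASAY/insASAY and 176 and 184 CPM in delE6/+; log2 fold change 0.36 ± 0.10, edgeR adjusted p = 0.00929), did not pass the thresholds, nor did *Esrrb* (log2 fold change -0.44 ± 0.074). In wild-type *Nanog* had 38.7 and 32.9 CPM and *Klf4* 14.3 and 13.0 CPM, above all 4 libraries. The nuclear receptor *Nr0b1* (6.34 and 6.59 CPM in insASAY/insASAY and 1.97 and 2.49 CPM in delE6/+; log2 fold change 1.54 ± 0.19, edgeR adjusted p = 2.27e-05), *Tdh*, a threonine-degrading enzyme of ES cells (28.3 and 25.9 CPM in insASAY/insASAY and 10.2 and 10.7 CPM in delE6/+; log2 fold change 1.38 ± 0.11, edgeR adjusted p = 9.48e-07), and *Zfp42*, also known as Rex1 (40.2 and 39.2 CPM in insASAY/insASAY and 22.0 and 22.7 CPM in delE6/+; log2 fold change 0.83 ± 0.067, edgeR adjusted p = 7.9e-07), were higher. Genes of the LIF pathway, which sustains the naive state through Stat3, were lower in 7 of 17 and higher in 1. *Stat3* had 40.4 and 42.0 CPM in insASAY/insASAY and 87.8 and 89.4 CPM in delE6/+ (log2 fold change -1.11 ± 0.071, edgeR adjusted p = 1.35e-07), with 85 and 83.5 CPM in wild-type, and the receptor *Lifr* 7.21 and 7.68 CPM in insASAY/insASAY and 12.9 and 13.3 CPM in delE6/+ (log2 fold change -0.82 ± 0.10, edgeR adjusted p = 3.16e-05). Of their targets, *Socs2* and *Pim3* were lower, at -0.76 ± 0.13 and -0.68 ± 0.11, and *Bcl3* was higher, at 0.74 ± 0.14. TREAT called 2 members of this class.

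The class with the greatest share of called members was that of the two-cell-like state, a rare, transient condition of ES cells that transcribes genes of the early embryo. Of 19 tested members 15 were higher and 0 lower, with a median of 1.59. *Zscan4d*, of the family that defines the state, was counted 187 and 174 times in insASAY/insASAY and 60 and 37 times in delE6/+ (log2 fold change 1.79 ± 0.19, edgeR adjusted p = 6.85e-06). *Zscan4c* was counted 157 and 144 times against 46 and 55 times (log2 fold change 1.46 ± 0.18). *Tmem92* was counted 106 and 99 times against 19 and 23 times (log2 fold change 2.17 ± 0.22, edgeR adjusted p = 5.42e-06). The deubiquitinase *Usp17la* was counted 83 and 74 times against 25 and 17 times (log2 fold change 1.79 ± 0.23). These 4 genes were named for their small adjusted p in this same contrast, so the separation of their libraries is no added support. Against wild-type, 14 members were lower in delE6/+ and 6 higher in insASAY/insASAY. The *Zscan4* and *Usp17l* families are near-identical copies. Reads that map to several of them are not counted, so the levels of their members are uncertain, and in bulk RNA fewer cells in this state and less RNA per cell cannot be told apart. Of the *Dppa* genes, of which *Dppa2* acts upstream of that state, 3 of 4 were higher, with *Dppa2* at 45.7 and 40.5 CPM in insASAY/insASAY and 15.0 and 16.3 CPM in delE6/+ (log2 fold change 1.46 ± 0.083, edgeR adjusted p = 6.21e-08) and *Dppa3* at 25.3 and 25.3 CPM in insASAY/insASAY and 14.7 and 15.8 CPM in delE6/+ (log2 fold change 0.73 ± 0.14, edgeR adjusted p = 0.000766).

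Zinc finger genes with a Zfp name, many of which repress transposable elements, formed the largest of the 60 classes. Of 376 tested, 128 were higher and 16 lower, with a median of 0.29. Against wild-type 136 were higher and 12 lower in insASAY/insASAY, but 21 and 9 in delE6/+. *Zfp936* had 30.2 and 25.8 CPM in insASAY/insASAY and 9.58 and 10.6 CPM in delE6/+ (log2 fold change 1.47 ± 0.12, edgeR adjusted p = 8.26e-07), with 9.17 and 10.5 CPM in wild-type. *Zfp985* had 39.1 and 38.8 CPM in insASAY/insASAY and 16.4 and 17.8 CPM in delE6/+ (log2 fold change 1.19 ± 0.090, edgeR adjusted p = 4.89e-07). Many of these genes are close copies in clusters, where reads that map to several copies are not counted. *Trim28*, the corepressor these proteins recruit, had 876 and 858 CPM in insASAY/insASAY and 858 and 917 CPM in delE6/+ (log2 fold change -0.03 ± 0.047, edgeR adjusted p = 0.568) and did not pass.

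Genes of the germline that promoter methylation normally silences were lower in insASAY/insASAY in 20 of 40 cases and higher in 4, with a median of -0.61. Outside chromosome 3, 17 of 36 were lower and 4 higher. Besides *Smc1b*, *Ddx4*, the Vasa helicase of germ cells, had 23.2 and 23.9 CPM in insASAY/insASAY and 42.9 and 43.9 CPM in delE6/+ (log2 fold change -0.88 ± 0.10, edgeR adjusted p = 1.17e-05). *Mael*, a factor of piRNA biogenesis named after its values were seen, had 20.8 and 20.8 CPM in insASAY/insASAY and 34.9 and 35.4 CPM in delE6/+ (log2 fold change -0.76 ± 0.17, edgeR adjusted p = 0.00196). The X-linked *Xlr3a* had 7.29 and 6.48 CPM in insASAY/insASAY and 26.6 and 26.4 CPM in delE6/+ (log2 fold change -1.94 ± 0.16, edgeR adjusted p = 8.26e-07), though it has close copies. *Taf7l*, a germ cell form of a TFIID subunit, was higher, at 81.1 and 82.2 CPM in insASAY/insASAY and 37.3 and 37.0 CPM in delE6/+ (log2 fold change 1.13 ± 0.070, edgeR adjusted p = 1.04e-07). Against wild-type 20 were lower and 0 higher in insASAY/insASAY, and 4 lower and 5 higher in delE6/+. The DNA methyltransferase *Dnmt3b* had 259 and 248 CPM in insASAY/insASAY and 267 and 269 CPM in delE6/+ (log2 fold change -0.08 ± 0.044, edgeR adjusted p = 0.14) and did not pass. *Tet2* and *Uhrf2*, which act on methylated or hydroxymethylated DNA, were lower. *Tet2*, on chromosome 3, had 12.3 and 11.6 CPM in insASAY/insASAY and 30.6 and 32.9 CPM in delE6/+ (log2 fold change -1.41 ± 0.14, edgeR adjusted p = 3.27e-06). *Uhrf2* had 72.6 and 75.9 CPM in insASAY/insASAY and 138 and 137 CPM in delE6/+ (log2 fold change -0.89 ± 0.063, edgeR adjusted p = 3.07e-07).

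Of 11 claudins, proteins of tight junctions, 6 were higher and 1 lower, with a median of 0.72. DESeq2 called 4 claudins. *Cldn6* had 122 and 133 CPM in insASAY/insASAY and 59.0 and 63.8 CPM in delE6/+ (log2 fold change 1.05 ± 0.081, edgeR adjusted p = 5.38e-07), with 202 and 219 CPM in wild-type. *Cldn4* had 501 and 533 CPM in insASAY/insASAY and 302 and 325 CPM in delE6/+ (log2 fold change 0.72 ± 0.053, edgeR adjusted p = 3.71e-07), with 770.1 and 808 CPM in wild-type. Of 16 intermediate filament and lamin genes, 7 were higher and 2 lower, the higher ones including filaments of other cell types such as *Nes*. *Krt8*, the keratin of simple epithelia, had 186 and 199 CPM in insASAY/insASAY and 64.0 and 67.4 CPM in delE6/+ (log2 fold change 1.55 ± 0.15, edgeR adjusted p = 3.77e-06). *Krt18*, its partner, had 123 and 137 CPM in insASAY/insASAY and 80.3 and 86.2 CPM in delE6/+ (log2 fold change 0.64 ± 0.11, edgeR adjusted p = 0.000292). Of 8 galectins, lectins that bind galactosides, 4 were higher and 0 lower, among them *Lgals1* (log2 fold change 0.90 ± 0.064, edgeR adjusted p = 3.02e-07) and *Lgals3* (9.18 and 11.6 CPM in insASAY/insASAY and 2.76 and 2.74 CPM in delE6/+; log2 fold change 1.92 ± 0.19, edgeR adjusted p = 3.22e-06). Against wild-type 0 claudins, galectins or intermediate filament genes were called higher in delE6/+, and 6, 5 and 4 lower (edgeR quasi-likelihood test). In the plasminogen system *Plaur* and *Anxa2* (115 and 119 CPM in insASAY/insASAY and 41.9 and 44.8 CPM in delE6/+; log2 fold change 1.44 ± 0.13, edgeR adjusted p = 1.94e-06) were higher, while the activators *Plat* (6.16 and 5.75 CPM in insASAY/insASAY and 17.8 and 18.2 CPM in delE6/+; log2 fold change -1.60 ± 0.11, edgeR adjusted p = 2.2e-07) and *Plau* (log2 fold change -0.94 ± 0.17) were lower.

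More matrix genes were lower than higher in insASAY/insASAY. Of 33 tested collagens 16 were lower and 3 higher, with a median of -0.42 (14 of 30 lower outside chromosome 3), and of 11 laminins 5 were lower and 0 higher. *Col4a2*, a collagen of basement membranes, had 53.3 and 57.3 CPM in insASAY/insASAY and 105 and 118 CPM in delE6/+ (log2 fold change -1.01 ± 0.071, edgeR adjusted p = 2.7e-07), and its partner *Col4a1* a log2 fold change of -0.67 ± 0.074. *Lamc1*, the laminin γ1 chain, had 428 and 426 CPM in insASAY/insASAY and 779.7 and 849.9 CPM in delE6/+ (log2 fold change -0.93 ± 0.081, edgeR adjusted p = 1.36e-06). Fibronectin, *Fn1*, had 528 and 549 CPM in insASAY/insASAY and 948 and 965 CPM in delE6/+ (log2 fold change -0.83 ± 0.075, edgeR adjusted p = 1.93e-06), with 1204 and 1247 CPM in wild-type. Of 23 tested fibroblast genes 10 were lower and 3 higher. *Fbln2*, a matrix glycoprotein, had 11.4 and 12.0 CPM in insASAY/insASAY and 47.4 and 50.8 CPM in delE6/+ (log2 fold change -2.07 ± 0.14, edgeR adjusted p = 2.2e-07). *Acta2*, smooth muscle actin, had 5.58 and 6.07 CPM in insASAY/insASAY and 14.0 and 13.8 CPM in delE6/+ (log2 fold change -1.26 ± 0.14, edgeR adjusted p = 1.22e-05). The feeder markers given above, at 22.3 and 22.1 CPM in insASAY/insASAY and at wild-type level in delE6/+, are no separate observation. All 12 are in the list of fibroblast genes, and some are collagens. The part of feeder or fibroblast-like cells in these counts was not tested.

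Genes that Atf4 switches on under amino acid or endoplasmic reticulum stress, with those of serine synthesis, were lower in 15 of 39 cases and higher in 2, with a median of -0.33. Outside chromosome 3 the counts were 13 lower and 1 higher of 35. *Slc7a5*, the large amino acid transporter, had 541 and 587 CPM in insASAY/insASAY and 1042 and 1060 CPM in delE6/+ (log2 fold change -0.90 ± 0.069, edgeR adjusted p = 5.48e-07). The alanyl-tRNA synthetase *Aars* had 606 and 649.9 CPM in insASAY/insASAY and 1116 and 1145 CPM in delE6/+ (log2 fold change -0.85 ± 0.068, edgeR adjusted p = 7.57e-07), and the threonyl-tRNA synthetase *Tars* a log2 fold change of -0.56 ± 0.045. *Sars* and *Phgdh*, a tRNA synthetase and the first enzyme of serine synthesis, had log2 fold changes of -0.73 ± 0.043 and -0.62 ± 0.044, and both lie on the middle stretch of chromosome 3, where the median was -0.421. *Asns*, asparagine synthetase, had 606 and 627 CPM in insASAY/insASAY and 759 and 789 CPM in delE6/+ (log2 fold change -0.33 ± 0.045, edgeR adjusted p = 5.65e-05). *Psat1*, of serine synthesis, had 544 and 571 CPM in insASAY/insASAY and 596 and 622 CPM in delE6/+ (log2 fold change -0.13 ± 0.044, edgeR adjusted p = 0.0267). Both were short of the fold threshold. *Fgf21*, a secreted stress hormone, was higher, counted 81 and 107 times against 43 and 33 (log2 fold change 1.20 ± 0.26, edgeR adjusted p = 0.00156). In the heat shock and chaperone genes, *Hspa5*, the endoplasmic reticulum chaperone BiP, was lower, at 541 and 519 CPM in insASAY/insASAY and 857 and 914 CPM in delE6/+ (log2 fold change -0.74 ± 0.045, edgeR adjusted p = 9.79e-08), and the cytosolic *Hspa8* and *Hspb1* were higher, by 0.78 ± 0.050 and 1.51 ± 0.063.

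The promoters of 11 of the 33 Atf4 class members with a RefSeq entry hold TGATGNAA, the letters of a C/EBP-Atf4 composite site, on either strand within 250 bases before to 50 after the start, against 4.51% of 27025 genes with a promoter. Of the 11, 6 were called lower and 1 higher, and of the 22 without the motif 7 were called lower. This motif and CTTTGAT were among 5 searched on both strands after the counts of the classes were known. Of the others, CACNCCAC, letters of a sterol element, was in 3 of 18 sterol gene promoters (7.12% of all promoters), TTCNNNGAA, of Stat sites, in 2 of 16 of the LIF class (9.55%) and TCACACCT, of T-box sites, in 0 of 19 of the streak class (1.48%). Chac1, Nupr1 and Vldlr are shown because they were called lower and their match lies before the start site, and all 3 were chosen after their values were seen. *Chac1*, a glutathione-degrading enzyme, had 44.4 and 55 CPM in insASAY/insASAY and 88.7 and 82.5 CPM in delE6/+ (log2 fold change -0.79 ± 0.12, edgeR adjusted p = 0.00012). *Nupr1*, a stress-induced nuclear protein, had 38.1 and 42.8 CPM in insASAY/insASAY and 93.9 and 85.5 CPM in delE6/+ (log2 fold change -1.15 ± 0.14, edgeR adjusted p = 2.31e-05). *Vldlr*, a lipoprotein receptor, had 34.0 and 37.4 CPM in insASAY/insASAY and 58.6 and 61.1 CPM in delE6/+ (log2 fold change -0.75 ± 0.064, edgeR adjusted p = 1.23e-06). Capitals mark the match, which starts 193, 110 and 200 bases before the start site, in RefSeq promoters of GRCm38.p6 at chr2:119350994-119351113 (plus strand), chr7:126625516-126625635 (minus strand) and chr19:27216770-27216889 (plus strand).
Chac1 promoter: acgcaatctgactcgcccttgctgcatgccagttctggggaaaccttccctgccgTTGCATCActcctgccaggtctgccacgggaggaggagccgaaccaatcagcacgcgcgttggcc
Nupr1 promoter: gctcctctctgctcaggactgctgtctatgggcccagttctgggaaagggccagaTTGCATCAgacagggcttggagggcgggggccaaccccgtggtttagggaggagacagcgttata
Vldlr promoter: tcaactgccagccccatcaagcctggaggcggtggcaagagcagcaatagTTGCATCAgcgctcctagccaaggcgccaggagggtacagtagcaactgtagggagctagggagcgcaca

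Genes of lipid synthesis that were called were all lower in insASAY/insASAY. Of 26 genes of cholesterol synthesis and uptake 9 were lower and 0 higher, and of 16 genes of fatty acid synthesis 7 were lower and 0 higher. Outside chromosome 3, 7 of 24 sterol genes and 7 of 15 fatty acid genes were lower. *Insig1*, the sterol sensor that is itself a sterol target, had 137 and 131 CPM in insASAY/insASAY and 314 and 318 CPM in delE6/+ (log2 fold change -1.24 ± 0.075, edgeR adjusted p = 9.71e-08). The enzyme *Dhcr7* had 157 and 163 CPM in insASAY/insASAY and 293 and 323 CPM in delE6/+ (log2 fold change -0.95 ± 0.082, edgeR adjusted p = 1.37e-06), and the enzyme *Cyp51* a log2 fold change of -0.70 ± 0.051. *Hmgcs1*, an early enzyme of the pathway, had 476 and 489.9 CPM in insASAY/insASAY and 539 and 562 CPM in delE6/+ (log2 fold change -0.19 ± 0.042, edgeR adjusted p = 0.00198) and did not pass the fold threshold. Against wild-type 7 sterol genes were lower in insASAY/insASAY. Set against wild-type, *Insig1* had -0.96 on the log2 scale in insASAY/insASAY and 0.28 in delE6/+, the latter short of the threshold. The desaturases *Scd1* and *Scd2*, which make monounsaturated fatty acids, were lower. *Scd1* had 90.8 and 93.3 CPM in insASAY/insASAY and 229 and 232 CPM in delE6/+ (log2 fold change -1.33 ± 0.054, edgeR adjusted p = 1.29e-08), with 95.3 and 95.7 CPM in wild-type, so that the delE6/+ libraries stood apart. *Scd2* had a log2 fold change of -0.98 ± 0.057. *Fasn*, fatty acid synthase, had 673 and 695 CPM in insASAY/insASAY and 634 and 601 CPM in delE6/+ (log2 fold change 0.15 ± 0.056, edgeR adjusted p = 0.0421) and did not pass.

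Glucose use and the hypoxia response differed gene by gene. The transporters *Slc2a3* (615 and 680.2 CPM in insASAY/insASAY and 2247 and 2398 CPM in delE6/+; log2 fold change -1.84 ± 0.11, edgeR adjusted p = 1.17e-07) and *Slc2a1* (652 and 657 CPM in insASAY/insASAY and 1051 and 1087 CPM in delE6/+; log2 fold change -0.71 ± 0.049, edgeR adjusted p = 2.71e-07) and the enolase *Eno2* (11.3 and 11.2 CPM in insASAY/insASAY and 43.8 and 45.0 CPM in delE6/+; log2 fold change -1.98 ± 0.15, edgeR adjusted p = 3.99e-07) were lower in insASAY/insASAY. *Ldha*, lactate dehydrogenase (955 and 947 CPM in insASAY/insASAY and 436 and 453 CPM in delE6/+; log2 fold change 1.10 ± 0.11, edgeR adjusted p = 3.71e-06), *Aldoa*, an aldolase (2168 and 2278 CPM in insASAY/insASAY and 1499 and 1445 CPM in delE6/+; log2 fold change 0.59 ± 0.051, edgeR adjusted p = 1.16e-06), and *Pdk1*, the kinase that shuts pyruvate out of mitochondria (584 and 560.2 CPM in insASAY/insASAY and 208 and 219 CPM in delE6/+; log2 fold change 1.42 ± 0.073, edgeR adjusted p = 2.56e-08), were higher. For *Ldha* and *Pdk1* the delE6/+ libraries were near wild-type (459.6 and 459.7 CPM and 224 and 231 CPM). In all 5 of 23 glycolysis genes were higher and 4 lower, and 8 of 25 hypoxia genes higher and 3 lower.

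Some housekeeping classes had fewer called members than the 27.5% of all genes. Of 83 nuclear-encoded subunits of the respiratory chain and ATP synthase 2 were called, of 47 proteasome genes 2, of 82 cytosolic ribosomal proteins 4 and of 77 mitochondrial ribosomal proteins 8. Several of those called lie on chromosome 3, such as *Rpl34* (log2 fold change -0.61 ± 0.052), *Rps27* (-0.54 ± 0.045) and *Atp5f1*, which encodes a subunit of ATP synthase (348 and 348 CPM in insASAY/insASAY and 529 and 548 CPM in delE6/+; log2 fold change -0.63 ± 0.044, edgeR adjusted p = 2.88e-07). *Rpl3*, a ribosomal protein encoded on chromosome 15, had 2385 and 2409 CPM in insASAY/insASAY and 2448 and 2584 CPM in delE6/+ (log2 fold change -0.07 ± 0.040, edgeR adjusted p = 0.167).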

How the data were processed

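RNA of 8 mouse ES cell libraries (2 each of wild-type, delE6/delE6, delE6/+ and insASAY/insASAY) was prepared by the authors as strand-specific poly(A) libraries, aligned with STAR 2.7.2a (mm10, GRCm38) and deposited as raw read counts per gene. Here the opposite-strand count of each gene was used, since the first-strand count held 4.11% to 4.78% of reads on either strand. STAR's summary lines, with 26.2% to 29.0% of reads in the 7 libraries whose files hold them, were left out. Symbols came from GENCODE M21 (48058 of 48440 identifiers).

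Counts were filtered with filterByExpr (minimum count 10, minimum total 15), scaled by TMM and fitted in edgeR 4.0.16 (R 4.3.3) with 1 coefficient per genotype over all 8 libraries, whose common spread served the contrast of the 2 lines. Quasi-likelihood tests were adjusted by Benjamini-Hochberg over 17049 genes. The steps were tested on simulated data. Libraries of a line differed by 2.79 (insASAY/insASAY) and 3.46 (delE6/+) times the sampling variance, so none was counted as a copy. Figures use log2 CPM. The authors used DESeq2 1.40.2, and DESeq2 1.42.0 was an alternative here, with TREAT in edgeR, DESeq2 size factors, other filters, unstranded counts, a fit of 4 libraries, a replicate block, omission of chromosome 3 and of each library.

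Genes were named by rule: 15 listed genes, the 15 largest called rises and falls outside chromosome 3 at 5 CPM or more (5 each on chromosome 3), and in each class up to 5 called members with the smallest adjusted p and 2 that did not pass. Genes beyond this were chosen after their values were seen: *Mael*, *Chac1*, *Nupr1*, *Vldlr*, *Cdx2*, *Nes*, *Pax6*, the mitochondrial genes, and several members given as not passing. Some genes that the rule names are not reported here. The libraries, classes and members were chosen with earlier results of these data known.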

Additional observations from a re-analysis of the deposited data

How the results depend on the processing

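Of the 4696 called genes, 96.0% to 99.9% of those present were called in the same direction with DESeq2 size factors, other filters on low counts, unstranded counts, the 4 libraries alone or chromosome 3 left out, 78.9% with DESeq2's Wald test, and 78.6% to 83.0% when 1 library was left out. The sign turned for 8 genes, with unstranded counts. TREAT, which asks whether a change exceeds the fold threshold itself, called 2192 genes, 1138 higher and 1054 lower, with 1986 outside chromosome 3 and 206 on it. Under TREAT the members called were 11 of the Wnt response, 13 of the germline, 2 of fatty acid synthesis, 62 of the Zfp-named genes, 11 collagens and 5 protocadherins, and *Tbxt*, at -0.76, was not called. DESeq2 called 7 protocadherins, and *Tbxt* was at -0.78 there. Leaving out 1 library gave 7 to 9 protocadherins and -1.03 to -0.45 for *Tbxt*, not called without either insASAY/insASAY library or delE6/+ replicate 2. With the 4 libraries alone, and with a replicate block added to them (an alternative chosen after seeing the data), the median of the middle stretch of chromosome 3 was -0.435.

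The replicate numbers share no source in the labels, and deviations of same-numbered libraries correlated at -0.0619 between the lines. A fit with the replicate block called 4662 genes and kept 98.5% of the calls. Among named genes, sign turned with 1 library left out for 4 that were not called. *Axin2* ran from -0.02 to 0.15, *Nanog* from -0.01 to 0.14, *Cdh1* from -0.13 to 0.04 and *Trim28* from -0.08 to 0.01. The cause of these shifts was not tested. With 2 libraries per line the spread rests on few samples, and genes with few reads, such as *Tbxt*, *Mixl1* and *Cdx2*, are the least certain.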

Other observations

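Transcripts of the mitochondrial genome differed by gene. *mt-Nd1* had 4288 and 3467 CPM in insASAY/insASAY and 1241 and 1573 CPM in delE6/+ (log2 fold change 1.46 ± 0.11, edgeR adjusted p = 6.08e-07), and *mt-Nd2* 1957 and 1611 CPM in insASAY/insASAY and 699 and 888 CPM in delE6/+ (log2 fold change 1.17 ± 0.11, edgeR adjusted p = 3.31e-06), both subunits of respiratory complex I. *mt-Nd6*, the only one of these encoded on the other strand, had 27.2 and 24.7 CPM in insASAY/insASAY and 11.3 and 11.9 CPM in delE6/+ (log2 fold change 1.17 ± 0.18, edgeR adjusted p = 0.000116). *mt-Co1* and *mt-Co3*, subunits of cytochrome oxidase, had log2 fold changes of 0.28 ± 0.16 and -0.08 ± 0.070 and did not pass, although *mt-Co1* did without delE6/+ replicate 2 (0.52). The wild-type libraries, at 2329 and 2099 CPM for *mt-Nd1*, lay between the lines. Nuclear-encoded subunits of the same complexes were among the classes with the fewest called members. These RNAs and their genes were chosen after their values were seen.

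Among biotypes of the annotation, 75 of 261 tested lincRNA genes were higher in insASAY/insASAY and 29 lower, with a median log2 fold change of 0.325, and 63 of 267 antisense genes were higher and 28 lower. Protein-coding genes had 2108 higher and 1979 lower of 14251, with a median of 0.001. Processed pseudogenes, whose reads can come from their parent genes, had 184 of 1547 called.

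Solute carriers, the transporters of small molecules, had 32 higher and 69 lower of 252, or 31 and 62 of 234 outside chromosome 3. *Slc38a3*, a glutamine transporter, had 10.7 and 10.6 CPM in insASAY/insASAY and 32.4 and 30.4 CPM in delE6/+ (log2 fold change -1.56 ± 0.092, edgeR adjusted p = 8.21e-08), and *Slc16a1*, a lactate transporter on chromosome 3, 261 and 264 CPM in insASAY/insASAY and 537 and 569.6 CPM in delE6/+ (log2 fold change -1.07 ± 0.047, edgeR adjusted p = 1.64e-08). Of 57 imprinted genes 9 were higher and 6 lower, a share called of 26.3%, near the 27.5% of all tested genes. *Zdbf2*, paternally expressed, had 116 and 119 CPM in insASAY/insASAY and 40.9 and 40.1 CPM in delE6/+ (log2 fold change 1.54 ± 0.13, edgeR adjusted p = 1.32e-06), with 36.3 and 35.5 CPM in wild-type, and *Peg3*, also paternally expressed, 160.2 and 151 CPM in insASAY/insASAY and 240.4 and 232 CPM in delE6/+ (log2 fold change -0.60 ± 0.050, edgeR adjusted p = 1.01e-06). In the Hedgehog pathway the receptor and target *Ptch1* had 59.3 and 56.2 CPM in insASAY/insASAY and 121 and 119.8 CPM in delE6/+ (log2 fold change -1.06 ± 0.054, edgeR adjusted p = 2.55e-08) and the effector *Gli2* 15.2 and 15.6 CPM in insASAY/insASAY and 38.2 and 34.4 CPM in delE6/+ (log2 fold change -1.24 ± 0.10, edgeR adjusted p = 7.62e-07). In the Notch pathway 7 of 27 genes were lower and 3 higher, or 5 of 24 and 3 outside chromosome 3. *Hes1*, a repressor that Notch induces, had 7.25 and 7.83 CPM in insASAY/insASAY and 17.7 and 16.8 CPM in delE6/+ (log2 fold change -1.19 ± 0.12, edgeR adjusted p = 3.97e-06) and was above wild-type (3.68 and 3.57 CPM) in both lines, and *Hes6* was higher, at 30.1 and 28.8 CPM in insASAY/insASAY and 17.6 and 19.2 CPM in delE6/+ (log2 fold change 0.68 ± 0.10, edgeR adjusted p = 0.000111). Among genes induced by stress and DNA damage, *Gadd45b* was lower, at 33.9 and 46.3 CPM in insASAY/insASAY and 85.5 and 92.0 CPM in delE6/+ (log2 fold change -1.15 ± 0.15, edgeR adjusted p = 3.43e-05) and 167 and 167 CPM in wild-type. Of 35 p53 targets 6 were higher and 7 lower, with the cell cycle inhibitor *Cdkn1a* at 269 and 267 CPM in insASAY/insASAY and 157 and 163 CPM in delE6/+ (log2 fold change 0.74 ± 0.049, edgeR adjusted p = 1.68e-07).

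Counts of members called, beside 14.6% higher and 13.0% lower of all tested genes, were as follows in the classes not yet counted. Among signalling classes, the BMP response had 2 higher and 4 lower of 25, the Hippo-Yap response 2 higher and 4 lower of 18, the Hedgehog pathway 2 higher and 4 lower of 13, FGF ligands 3 higher and 4 lower of 12. DESeq2 called 4 FGF ligands, and 3 were called with at least 10 counts required in every library. Fewer were also called without delE6/+ replicate 2. The Frizzled receptors of Wnt had 1 higher and 4 lower of 10, and the Dusp phosphatases, which act on MAP kinases, 6 higher and 5 lower of 22. Among transcription factors, Fox factors had 3 higher and 3 lower of 33, Sox factors 3 higher and 7 lower of 17, Kruppel-like and Sp factors 5 higher and 5 lower of 24, immediate early genes 6 higher and 4 lower of 24. Of the lineage classes, core pluripotency had 2 higher and 1 lower of 12, trophectoderm 4 higher and 4 lower of 17, endoderm 5 higher and 7 lower of 25. More core pluripotency members were called without delE6/+ replicate 2. In chromatin and the cell cycle, histones had 4 higher and 12 lower of 52, the DNA methylation machinery 1 higher and 5 lower of 22, cyclins and CDK inhibitors 5 higher and 4 lower of 30. Fewer histones were called without insASAY/insASAY replicate 1. At the cell surface, integrins had 1 higher and 6 lower of 24, the plasminogen activator system 4 higher and 2 lower of 8, voltage-gated potassium channels 3 higher and 3 lower of 18. DESeq2 called 2 integrins and 3 of these channels. Fewer integrins were also called without either insASAY/insASAY library or delE6/+ replicate 1, and fewer channels without delE6/+ replicate 2. Heat shock proteins and chaperones had 12 higher and 8 lower of 68, and the calcium-binding S100 proteins 1 higher and 2 lower of 7. Outside chromosome 3 the counts were 2 higher and 2 lower of 16 in the Hippo-Yap response, 3 higher and 11 lower of 48 in histones, and 1 tested S100 gene, which was not called.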
